A study of Mus with 3 samples.

Results

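The 8 cytokine genes described here, Ifng, Tnf, Il2, Csf1, Csf2, Il10, Il21 and Lif, were taken by name from the 32285 genes of a single-cell RNA count table of mouse MC38 colon tumors, and were read in 2860 T cells out of 5583 cells in all. T cells were the cells of clusters in which over 50% of barcodes carried a T cell receptor clonotype. CD8 T cells (CTLs) had 1 or more UMIs of Cd8a and none of Cd4 (2139 cells), and CD4 T cells had Cd4 and neither Cd8a nor Cd8b1, with Foxp3 (349 cells) or without it (372 cells). A UMI is 1 counted RNA molecule, and levels are a gene's UMIs per 1000000 UMIs of all genes (CPM), summed over the cells of a group. On the GRCm38.p6 assembly, Ifng lies at chr10:118441046-118445894, Tnf at chr17:35199367-35202007, Il2 at chr3:37120713-37125954 and Il21 at chr3:37222759-37232636. Csf1 lies at chr3:107741048-107760469, Csf2 at chr11:54247270-54249899, Il10 at chr1:131019845-131024970 and Lif at chr11:4257568-4272514, and all are protein-coding.

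WT, RARα-KO and RARα-TG mice carried MC38 tumors for 16 days, and from each genotype 30000 sorted CD45.2+ CD3+ T cells, with 10000 unselected tumor cells, were marked with a hashtag antibody, pooled into 1 library and sequenced with their T cell receptors. RARα-KO mice carried a floxed Rara gene and Cre driven by the distal Lck promoter (dLck-Cre), which acts in T cells and leaves a Rara transcript without an inner exon. RARα-TG mice expressed Rara from the CD2 promoter, also in T cells. Controls were C57BL/6 or dLck-Cre animals, and which of these gave the WT tumor, how many mice stood behind each genotype, and their age and sex in this experiment are not given in the sources used here. The labels also name spleen and cultured naive CD8 T cells, against the tumor protocol in the same record, and the tumor protocol was followed. Each genotype was 1 sample, so no test between genotypes was possible. Every interval below is a 95% counting interval within this library and covers neither mice nor the uneven spread of UMIs over cells.

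IFN-γ and TNF are effector cytokines that CTLs and type 1 helper cells release on contact with antigen, acting on tumor cells and macrophages. IL-2 and IL-21 are growth factors for T cells, M-CSF (Csf1) and GM-CSF (Csf2) act on myeloid cells, IL-10 is a suppressive cytokine of regulatory T cells and LIF signals through gp130. In T cells the transcription of many cytokine genes follows T cell receptor signalling, and many cytokine mRNAs are short-lived.

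The hashtags assigned 1934 cells to WT, 2102 to RARα-KO and 894 to RARα-TG, and left out 428 mixed and 225 unmarked barcodes. There were 846 WT, 1180 RARα-KO and 113 RARα-TG CTLs, with medians of 5663, 5574 and 4680 UMIs per cell. CD4 Foxp3-negative cells numbered 96, 166 and 110 (medians 3858, 4522 and 3803 UMIs) and CD4 Foxp3-positive cells 120, 79 and 150 (medians 3993, 4950 and 4073 UMIs), in the same order. The largest share of WT CTLs (36.2%) fell in a cluster led by Gzmf, Gzmd and Gzme, that of RARα-KO (47.3%) in one led by Serpine2 and Ccl5, and that of RARα-TG (41.6%) in one led by S1pr1 and Tcf7. The largest cluster of CD4 Foxp3-negative cells was the same in WT and RARα-KO (49% and 67.5%) and another in RARα-TG (35.5%), as for Foxp3-positive cells (90%, 91.1% and 68%). About 250 doublets within a genotype were estimated to remain, and 3 of 1730 cells in clonotypes of 5 or more T cells carried another genotype's hashtag than the rest of their clonotype. In bulk sums of this kind, fewer cells with a transcript and fewer transcripts per cell cannot be told apart, so the share of cells with a UMI is given beside each level.

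Ifng differed between genotypes in CTLs. WT CTLs held 653 UMIs of it, or 116 CPM (107 to 125). The RARα-KO level was 395 CPM (381 to 409, 3203 UMIs) and the RARα-TG level 31.5 CPM (19 to 49.2, 19 UMIs). The share of CTLs with an Ifng UMI followed the same order, at 23.5% (WT), 30.6% (RARα-KO) and 12.4% (RARα-TG), and the intervals of the 3 shares did not overlap. RARα-KO was higher than WT by 1.76 on the log2 scale (1.64 to 1.89) and RARα-TG was lower, at -1.88 (-2.62 to -1.23). Few cells held much of the transcript: the top 10 cells carried 44% of the WT UMIs and 52.4% of those of RARα-KO, and 1 RARα-KO cell carried 278. After thinning each cell to 1000 UMIs, an Ifng UMI was left in 6.4% (WT), 12.5% (RARα-KO) and 4.5% (RARα-TG) of CTLs. At this equal depth the WT interval (4.84% to 8.27%) lay inside the RARα-TG one (1.48% to 10.2%, 5 cells with a UMI). Only the RARα-KO interval (10.6% to 14.5%) stayed apart from the others, so the lower RARα-TG share was not resolved from WT. In cells led by Col3a1, which should not make IFN-γ and were several times deeper (medians 29914, 30739 and 19337 UMIs), 1.46%, 0.794% and 5.26% had a UMI.

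Tnf showed the same order in CTLs, with a WT level of 37.2 CPM (32.3 to 42.6), a RARα-KO level of 76.3 CPM (70.4 to 82.6) and 2 UMIs, or 3.32 CPM (0.402 to 12), among RARα-TG cells. Its UMIs were found in 11.5%, 18.4% and 1.77% of these CTLs, against 1.09% and 0.794% of Col3a1-led cells and 0 of the 19 from RARα-TG, which allows a share of up to 15.8%. Relative to WT, the log2 ratio of RARα-KO was 1.04 (0.81 to 1.27) and that of RARα-TG -3.49 (-6.54 to -1.62), and with 0 RARα-TG UMIs left after thinning the latter was at most -0.44. The largest RARα-KO clonotype carried 43.5% of the Tnf UMIs of RARα-KO CTLs with a receptor, and without the largest clonotype of each genotype the RARα-KO ratio was 0.56.

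The 2 colony-stimulating factors were lower in RARα-KO than in WT CTLs. The Csf1 level was 282 CPM (269 to 297) for WT, 104 CPM (96.8 to 111) for RARα-KO and 9.96 CPM (3.65 to 21.7) for RARα-TG. A Csf1 UMI was found in 54.5%, 23.6% and 5.31% of these CTLs (21.2%, 8.15% and 2.7% after thinning). Myeloid cells of similar depth (medians 6712, 6455 and 6630 UMIs) held one in 10.4%, 8.73% and 11.4%, and dendritic cells (medians 7718, 7424 and 7042 UMIs) in 0 of 49, 1 of 36 and 0 of 17. The RARα-TG share of CTLs lay between those of these other cells, so it is not read as either expression or background. No cell held more than 1.26% of the WT Csf1 UMIs, in contrast to Ifng. The log2 ratio of RARα-KO to WT was -1.45 (-1.57 to -1.32) and that of RARα-TG -4.83 (-6.27 to -3.70), or -2.02 when cells were given the genotype of their highest hashtag. Csf2 stood at 23.3 CPM in 29 WT cells, with 44 of the 131 UMIs in 1 cell, and at 2.1 CPM in 11 RARα-KO cells. It had 0 of the 602657 RARα-TG UMIs, which allows up to 4.98 CPM. The Csf2 ratio of RARα-KO was -3.48 (-4.30 to -2.74), or -0.75 with each clonotype counted alike, and that of RARα-TG at most -2.23. Col3a1-led cells of WT held Csf2 in 5.11%, above the 3.43% of WT CTLs, but in 0.365% against 1.3% after thinning, and their level was 7.85 CPM.

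The growth and suppressive cytokines were at the edge of detection in CTLs. Il2 had 20 UMIs in 3 WT cells, 18 of them in 1 cell, 1 UMI in RARα-KO and none in RARα-TG. All 23 Il21 UMIs of RARα-KO CTLs lay in 1 cell, and WT and RARα-TG had none. In the order WT, RARα-KO, RARα-TG, Il10 had 1, 6 and 0 UMIs and Lif had 0, 2 and 0. For Il2, Il10, Il21 and Lif no difference between genotypes beyond single cells was detectable at this depth.

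Of the 8 members, 6 had 20 or more UMIs over WT and RARα-KO CTLs, and 3 of these were higher (Ifng, Tnf, Il21) and 3 lower (Csf1, Csf2, Il2) by over 2-fold in RARα-KO. Over all genes with as many UMIs, 2.55% were higher and 2.90% lower by as much, with a median ratio of 0.01. The median ratio over the 7 members with a ratio was 1.04, but it moved to -0.21 without the top cell of each group, since Il10, Il21 and Il2 each rested on a few cells. In RARα-TG CTLs 5 members had enough UMIs, 4 were lower by over 2-fold (Ifng, Tnf, Csf1, Csf2), none was higher and the median was -2.86, against 5.65% of all genes higher and 8.97% lower. Both comparisons used the same WT cells.

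**Figure D1:**
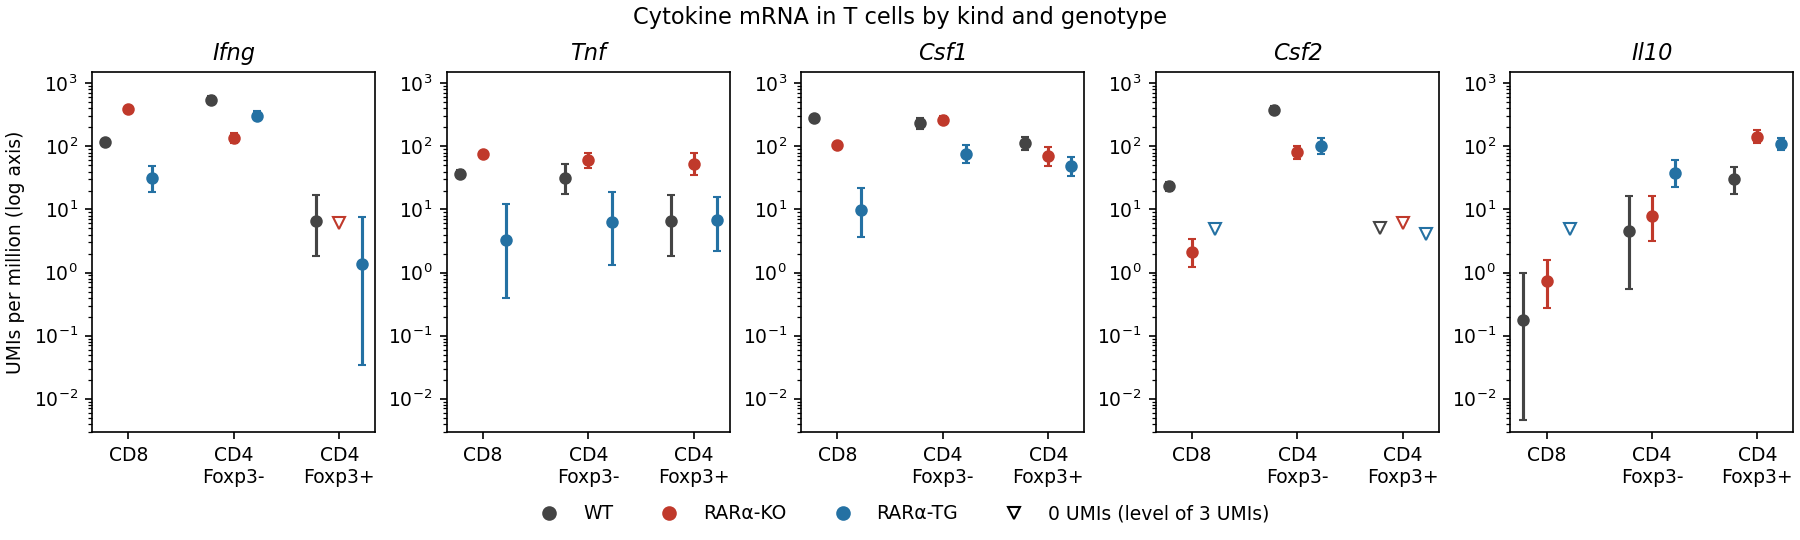
Level of 5 cytokine genes (CPM, log axis) in CD8, CD4 Foxp3-negative and CD4 Foxp3-positive T cells of WT, RARα-KO and RARα-TG. Points are sums over all cells of a group with 95% Poisson intervals, and open triangles mark 0 UMIs at the level of 3 UMIs. In CTLs Ifng and Tnf were highest in RARα-KO (395 and 76.3 CPM), while Csf1 and Csf2 were highest in WT (282 and 23.3 CPM).

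The RARα-KO difference in CTLs was also read within the clusters that held 30 or more WT and RARα-KO CTLs. In the Gzmf-led cluster, Ifng was in 27.5% of WT and 39.2% of RARα-KO cells (log2 ratio 0.90, 0.59 to 1.21) and Csf1 in 74.2% and 33.3% (-1.69, -2.08 to -1.33). In the Serpine2-led cluster Ifng was in 25.4% and 28% (0.99, 0.49 to 1.55) and Csf1 in 55.6% and 29.4% (-1.33, -1.62 to -1.03). In a cluster led by histone genes and Mki67, both effector genes were higher in RARα-KO, Ifng by 2.49 (2.14 to 2.86) and Tnf by 2.86 (2.24 to 3.55). One RARα-KO cell held 155 of its 233 Tnf UMIs, and without the top cells the Tnf ratio was 2.11. Csf1 there was lower at -0.67 (-1.04 to -0.32), or -1.60 without the top cells. A Gzma-led cluster showed Csf1 in 51% and 42.6% of cells (-0.26, -0.65 to 0.11), an interval on both sides of 0. In a cluster led by interferon-induced genes such as Ifit1 the Ifng ratio went the other way, at -2.49 (-3.36 to -1.64), on 29 and 22 UMIs, or -1.39 without the top cells. In an Xcl1-led cluster, where Ifng itself was among the leading genes, Tnf was lower in RARα-KO at -0.43 (-0.83 to -0.03), with 60 of the 86 WT UMIs in 1 cell, and 1.15 without the top cells. Csf1 in that cluster was in 39.6% and 13.8% of cells (-2.36, -2.86 to -1.87). In the other clusters with a Tnf ratio it was 1.21 (Serpine2-led), 0.46 (Gzmf-led), 0.43 (Gzma-led) and -0.33 (Ifit1-led), and the interval left out 0 in the first of these. Clusters were built from these same counts, with T cell receptor genes left in. Trbv16 and Trav14n-3 were among the leading genes of the Serpine2-led cluster, and Trav3-1, Trbv5 and Trbv14 among those of the Gzmf-led one. The WT and RARα-KO cells of a cluster were thus not matched for receptor.

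CD4 Foxp3-negative cells gave a different picture. Their Ifng level was 548 CPM (481 to 622) for WT, 135 CPM (112 to 161) for RARα-KO and 307 CPM (259 to 361) for RARα-TG, while the share of cells with a UMI ran the other way between the first 2 genotypes, 16.7%, 29.5% and 10.9%. A single cell held 130 of the 241 WT UMIs (53.9%) and another 119 of the 144 RARα-TG UMIs (82.6%). The log2 ratio of RARα-KO to WT was -2.02 (-2.35 to -1.70), was -1.09 without the top cell of each group and reversed to 0.26 when each clonotype counted alike. The RARα-TG ratio of -0.84 (-1.14 to -0.53) became 1.5 with clonotypes alike and -2.24 without the top cells. No direction is therefore read for Ifng in these cells. One WT clonotype of 14 Foxp3-negative cells held 195 of the Ifng and 90 of the 167 Csf2 UMIs.

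Csf2 was at 380 CPM (324 to 442) for WT, 81.1 CPM (63.4 to 102) for RARα-KO and 102 CPM (75.4 to 136) for RARα-TG, in 13.5%, 6.63% and 7.27% of Foxp3-negative cells. Its RARα-KO ratio was -2.23 (-2.65 to -1.82) and its RARα-TG ratio -1.89 (-2.39 to -1.42). Csf1 was at 232, 266 and 76.7 CPM, with a RARα-KO ratio of 0.20 (-0.14 to 0.55), or 1.35 after thinning, and a RARα-TG ratio of -1.60 (-2.19 to -1.03). The lower Csf1 of RARα-KO CTLs was thus not seen in CD4 Foxp3-negative cells, and the difference between the kinds was not tested. Tnf was at 31.8, 60.6 and 6.4 CPM, in 9.38%, 22.3% and 2.73% of cells, with a RARα-KO ratio of 0.93 (0.06 to 1.89). Il10 had 2, 7 and 18 UMIs, and its RARα-TG level of 38.4 CPM gave a ratio of 3.08 (1.01 to 6.23). Its shares were 2.08% in WT (0.253% to 7.32%) and 7.27% in RARα-TG (3.19% to 13.8%), with overlapping intervals. These cells were gated by having no Foxp3 UMI, so a missed Foxp3 transcript cannot be told from an absent one. Il2 had 4, 1 and 3 UMIs, Il21 had 4, 5 and 1, and Lif had 1 UMI in all. In RARα-KO, 4 members had 20 or more UMIs, none was higher and 2, Csf2 and Ifng, were lower by over 2-fold. The background was 3.30% higher and 3.66% lower, and the median over 7 members -0.67. For Ifng, 1 of these 2, no direction is read, as stated above. In RARα-TG, 4 had enough, 1 was higher and 2 were lower (background 3.31% and 4.04%, median -1.60).

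CD4 Foxp3-positive cells held Il10, Csf1 and Tnf, and almost no Ifng. Il10 was at 30 CPM (17.8 to 47.4) for WT, 143 CPM (112 to 181) for RARα-KO and 109 CPM (86.4 to 136) for RARα-TG, in 10.8%, 20.3% and 22.7% of cells. Its RARα-KO ratio was 2.26 (1.49 to 3.09), with 35 of 70 UMIs in 1 cell, and its RARα-TG ratio 1.86 (1.11 to 2.68). The interval of the WT share (5.9% to 17.8%) overlapped those of RARα-KO (12% to 30.8%) and RARα-TG (16.2% to 30.2%). Il10 was itself among the leading genes of the cluster with most RARα-TG cells (68%). It was not among those of the cluster with most WT and RARα-KO cells. In Col3a1-led cells Il10 had 1 UMI in all. Ifng had 4, 0 and 1 UMIs, and Csf2, Il2, Il21 and Lif had none in any of the 349 cells, which allows a share of up to 3.8% in RARα-KO, the smallest group. Tnf was at 6.67, 53.2 and 6.81 CPM, in 3.33%, 17.7% and 3.33% of cells, and its RARα-KO ratio was 3.0 (1.47 to 4.98) on 26 and 4 UMIs. Csf1 was at 112, 69.6 and 49 CPM, with ratios of -0.68 (-1.32 to -0.07) and -1.19 (-1.82 to -0.58). In RARα-KO, 3 members had 20 or more UMIs and 2 were higher by over 2-fold (background 2.51% higher, 3.32% lower, median over 4 members 1.07). In RARα-TG, 2 had enough, with 1 higher and 1 lower (background 4.36% and 3.23%, median -0.58).

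**Figure D2:**
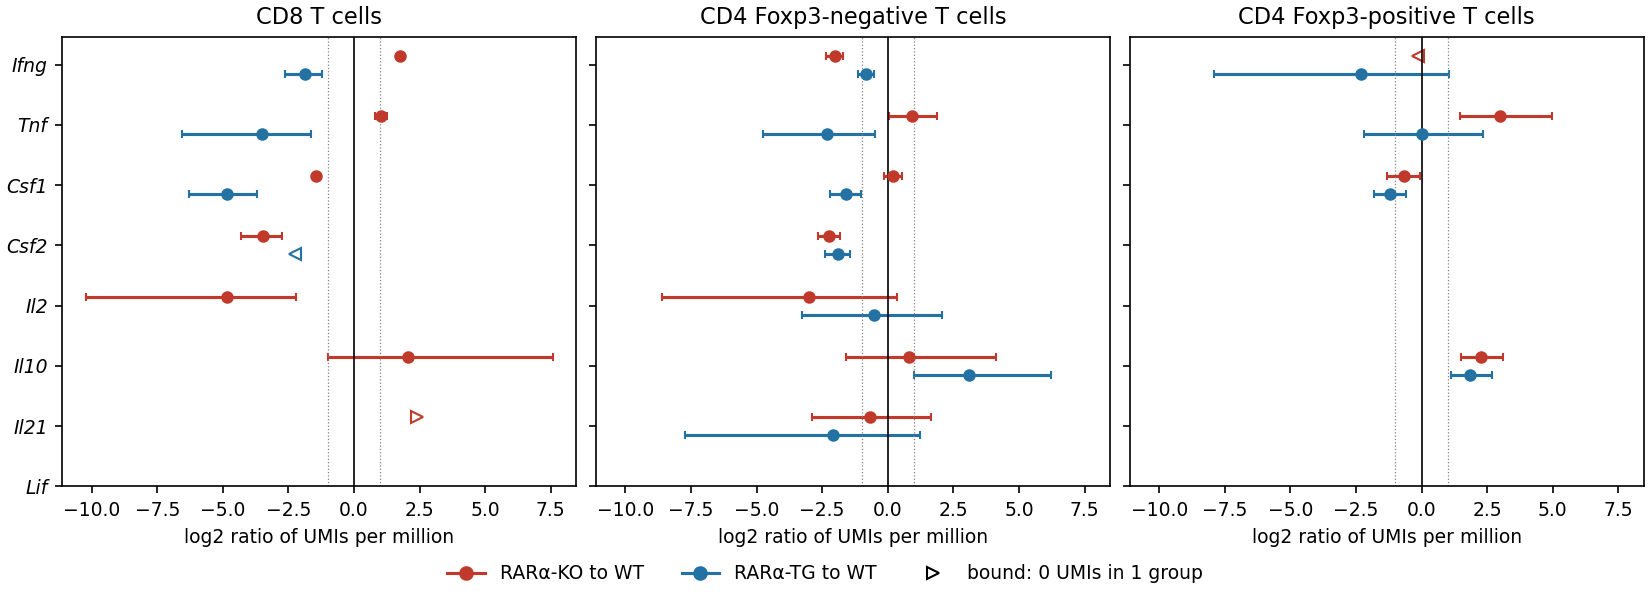
log2 ratio of CPM of RARα-KO and RARα-TG to WT for the 8 cytokine genes in the 3 kinds of T cell. Points have exact 95% intervals from the binomial split of the UMIs, open triangles are bounds where 1 group had 0 UMIs, and dotted lines mark 2-fold. Genes with 3 or fewer UMIs in both groups are not drawn. Il2 of RARα-TG CTLs is not drawn either, since 0 against 20 UMIs in WT gave no usable bound. For Ifng, RARα-KO lay at 1.76 in CTLs and at -2.02 in CD4 Foxp3-negative cells.

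Outside T cells, 3 members had their own sources. In the order WT, RARα-KO, RARα-TG, Tnf was at 1323, 670 and 77.2 CPM in the myeloid cluster (53.2%, 65.9% and 28.6% of 77, 126 and 35 cells), where 1 WT cell held 352 UMIs, and at 8623, 4450 and 2834 CPM in 10, 37 and 10 neutrophils. Csf1 was found in 92.7%, 91.3% and 84.2% of the Col3a1-led cells, at 197, 217 and 213 CPM, a level that did not follow the genotype order of CTLs. Neutrophils held it at 1009, 1080 and 521 CPM, in 40%, 59.5% and 60% of cells. Lif, nearly absent from T cells, was found in 11.3%, 8.73% and 5.26% of the deeper Col3a1-led cells, and after thinning in 0.365% of those from WT and in none of the others. Ifng had 1, 14 and 0 UMIs in myeloid cells. There 2 members had 20 or more UMIs, of which Tnf was lower by over 2-fold in RARα-TG (background 4.44% higher and 9.73% lower) and neither passed 2-fold in RARα-KO (background 5.75% and 3.97%).

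Clonotype size was compared next, since expansion follows antigen recognition. In WT CTLs, Csf1 was found in 21.1% of the 123 cells whose clonotype had no other T cell, in 57.2% of cells in clonotypes of 2 to 9, in 61.7% in clonotypes of 10 to 49 and in 65.6% in clonotypes of 50 or more. Single WT cells were shallower (median 4221 UMIs against 6116, 6450 and 4772), but after thinning the shares were 8.94%, 24.4%, 23.2% and 25.4%. WT Ifng was in 12.2%, 24.4%, 27.2% and 24.6% of cells, and in 4.07%, 7.96%, 6.38% and 7.38% after thinning. Both genes were thus found less often in single than in expanded clonotypes and differed little among the expanded. For Ifng the intervals of single cells (6.99% to 19.3%) and of clonotypes of 2 to 9 (18.6% to 30.9%) overlapped. In RARα-KO, Ifng was in 19.1%, 31.3%, 30.6% and 33.6% and Csf1 in 11.7%, 18.2%, 26.9% and 22.6% of cells. RARα-KO Csf2 was in 3 of 94 single cells (13.3 CPM) and in 1, 2 and 3 cells of the size groups above (0.779, 0.88 and 2.24 CPM). RARα-TG CTLs were mostly single (81 of 94 with a receptor), with Ifng in 9.88% of these and in 3 of the 13 others.

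Between WT clonotypes of 10 or more T cells and single ones, all 5 members with 20 or more UMIs were higher by over 2-fold in the expanded cells (background 6.55% higher, 4.15% lower, median 1.5). The log2 ratio was 1.08 for Ifng (0.59 to 1.62), 2.08 for Tnf (1.07 to 3.32), 1.18 for Csf1 (0.87 to 1.51) and 1.5 for Csf2 (0.47 to 2.74), the last turning to -0.55 after thinning. For Il2, on 19 and 1 UMIs, it was 1.97 with an interval on both sides of 0. In RARα-KO 4 members had enough (Ifng, Tnf, Csf1 and Il21) and 1 was higher, Csf1 at 1.47 (0.87 to 2.14). The background was 5.27% higher and 4.53% lower. RARα-KO Ifng was at 0.61 (0.38 to 0.86), and at 0.20 without the largest clonotype. Csf2, with too few UMIs for the count of members, was at -3.09 (-4.83 to -1.35) on 7 and 7 UMIs. The median over the 4 members with a ratio (Ifng, Tnf, Csf1 and Csf2) was 0.50, and -0.09 without the largest clonotype. In RARα-TG no member had enough UMIs between clonotypes of 2 or more and single ones (background 7.64% and 10.6%).

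**Figure D3:**
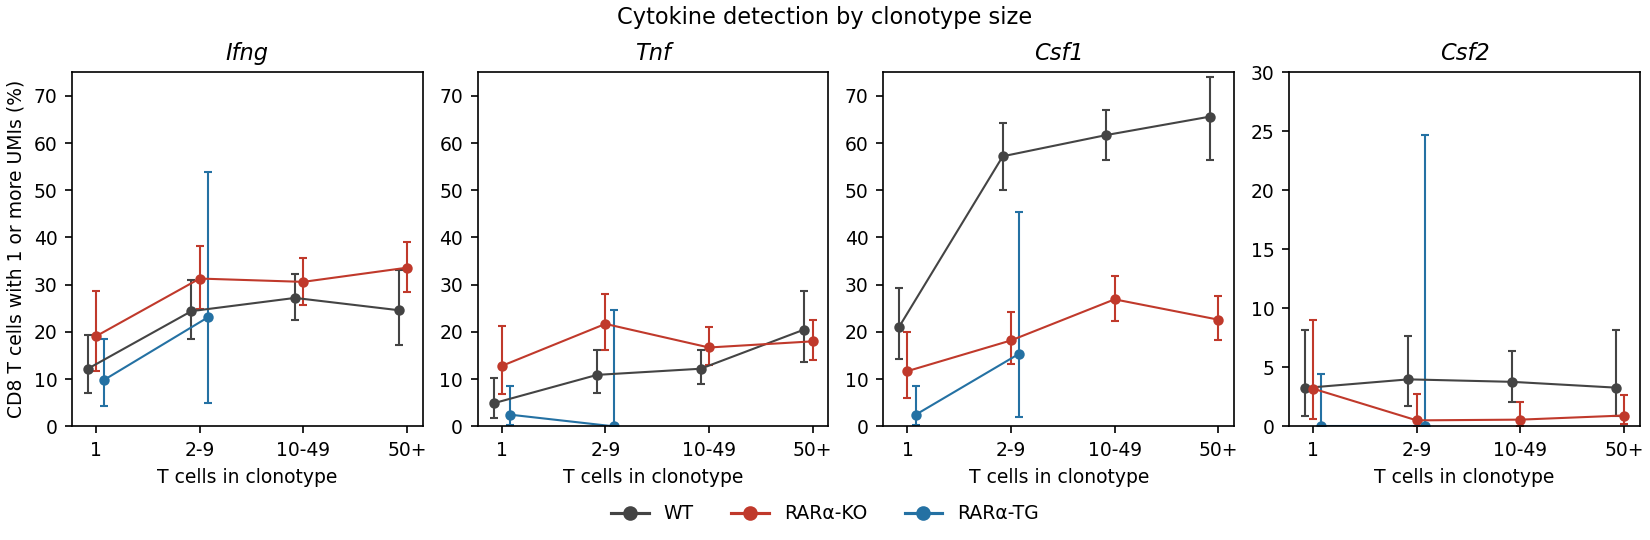
Share of CTLs with 1 or more UMIs of Ifng, Tnf, Csf1 or Csf2 (%, note the smaller scale for Csf2) by the number of T cells in their clonotype, with exact 95% binomial intervals. The WT Csf1 share went from 21.1% in single cells to 65.6% in clonotypes of 50 or more. The RARα-KO share went from 11.7% in single cells to 26.9% in clonotypes of 10 to 49 and 22.6% in those of 50 or more.

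Single clonotypes showed that Csf1 and Ifng were spread differently. Among clonotypes with 10 or more CTLs, all 19 WT clonotypes held Csf1, in 40% to 80% of their cells (median 63.6%), whereas the 21 RARα-KO clonotypes ran from 0% to 80% (median 26.3%) and 2 of them held none. One of these 2, clonotype 23 (16 CTLs), had no alpha chain and the same beta CDR3 as clonotype 4, which held Csf1 in 11.9%. Whether clonotypes 23 and 4 were 1 clone was not tested. Ifng ranges overlapped more, 5.88% to 51.7% of cells in WT (median 28.6%) and 9.09% to 66.7% in RARα-KO (median 31%). RARα-KO clonotype 1 had 113 CTLs, with Ifng in 34.5% (835 UMIs) but Csf1 in only 3.54%. RARα-KO clonotype 22 had 15 CTLs, with Ifng in 53.3% (350 UMIs, 278 in 1 cell) and Csf1 in 80%. In WT clonotype 6, 58 CTLs held Csf1 in 77.6% and Ifng in 37.9%. Its 56 Csf2 UMIs were all those of WT clonotypes of 50 or more T cells, where 4 of 122 CTLs held the gene. The clonotype with the most Ifng carried 31.7% of the UMIs in RARα-KO and 13.1% in WT.

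Many RARα-KO clonotypes shared receptor genes, a beta chain with TRBV16 and an alpha chain with TRAJ22. They were 28 clonotypes with 442 CTLs in RARα-KO, 1 cell in WT and none in RARα-TG. All were chosen for TRAJ22, so a shared end of the alpha CDR3 follows from that choice. Clonotype 113 had 264 Ifng UMIs, 262 of them in 1 of its 4 CTLs. The alpha CDR3 sequences of the 3 with the most Ifng UMIs are shown, with the shared end in capitals (5′ to 3′, coding strand, from the deposited contigs):
RARα-KO clonotype 1, alpha: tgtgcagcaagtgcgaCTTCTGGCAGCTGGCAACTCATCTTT
RARα-KO clonotype 113, alpha: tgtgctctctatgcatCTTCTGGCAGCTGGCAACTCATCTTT
RARα-KO clonotype 4, alpha: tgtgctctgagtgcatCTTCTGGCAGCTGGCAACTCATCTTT

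These receptor-related CTLs held Ifng in 33.7% (545 CPM) and Csf1 in 19.7% (79.8 CPM). The other 142 RARα-KO clonotypes held Ifng in 28.1% (305 CPM) and Csf1 in 24.3% (125 CPM), and the other WT clonotypes held Ifng in 23.8% (114 CPM) and Csf1 in 54.9% (282 CPM). Among these other clonotypes, the log2 ratio of RARα-KO to WT was 1.42 for Ifng (1.27 to 1.56), 0.62 for Tnf (0.33 to 0.90), -1.18 for Csf1 (-1.34 to -1.02) and -2.67 for Csf2 (-3.62 to -1.85). All 4 kept their direction among clonotypes not assigned to this receptor family, which was singled out after its values were seen. The intervals of the 2 Ifng shares overlapped (24.3% to 32.1% in RARα-KO and 20.9% to 26.9% in WT). One of these RARα-KO cells held 278 of the 1032 Ifng UMIs. Clonotypes without an alpha chain were counted among the others. Of these, RARα-KO clonotype 23 (16 CTLs) had the beta CDR3 of clonotype 4, and clonotype 85 (3 CTLs) that of clonotype 1.

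Only 4 sets of V and J genes for both chains occurred in CTLs of both WT and RARα-KO, and 1 of them had 5 or more CTLs in each: TRAV7D-2 with TRAJ7 and TRBV16 with TRBJ2-7. The alpha CDR3 sequences of its 4 clonotypes are shown because they let cells with the same V and J genes be compared across genotypes. Capitals mark the 4 positions at which the sequences were not the same in all 4 clonotypes:
WT clonotype 8, alpha: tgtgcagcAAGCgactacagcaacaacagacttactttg
WT clonotype 25, alpha: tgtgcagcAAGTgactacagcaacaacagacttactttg
RARα-KO clonotype 31, alpha: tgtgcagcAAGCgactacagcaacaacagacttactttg
RARα-KO clonotype 57, alpha: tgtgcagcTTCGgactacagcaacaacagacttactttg

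In these CTLs with matched V and J genes, Csf1 was found in 60.8% of 51 WT cells (46.1% to 74.2%) and in 56.5% of 23 RARα-KO cells (34.5% to 76.8%), intervals that overlapped. The Csf1 level was 194 CPM in WT and 309 CPM in RARα-KO, the opposite order to that over all CTLs. Ifng was found in 15.7% of the WT cells (7.02% to 28.6%, 42.7 CPM, 15 UMIs) and in 26.1% of the RARα-KO cells (10.2% to 48.4%, 379 CPM, 49 UMIs). The Ifng order was thus that over all CTLs, with overlapping shares, and Csf2 had no UMI in either.

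**Figure D4:**
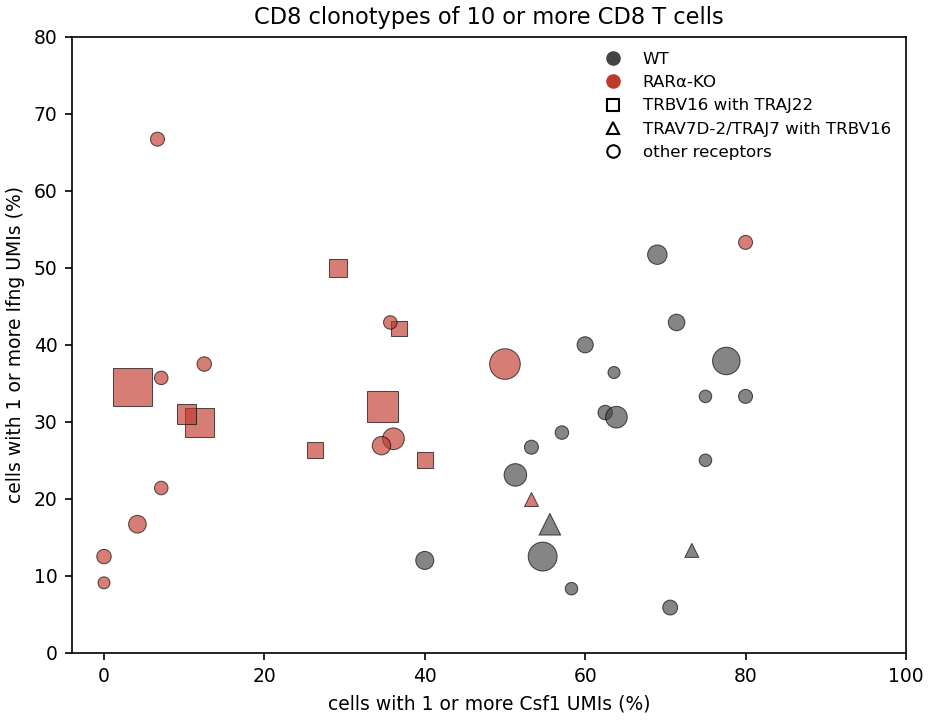
Share of cells with a Csf1 UMI against share with an Ifng UMI (both %) for the 40 clonotypes with 10 or more CTLs in WT and RARα-KO. Marker area grows with the number of CTLs, squares are TRBV16 with TRAJ22, and triangles TRAV7D-2/TRAJ7 with TRBV16. WT clonotypes lay at 40% or more on the Csf1 axis, RARα-KO clonotypes between 0% and 80%.

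Co-detection in single cells was read for pairs of members. In RARα-KO CTLs, Tnf was found in 29.1% of the 361 cells with Ifng (24.5% to 34.1%) and in 13.7% of the 819 without (11.4% to 16.2%), and in 15% against 3.78% after thinning. In WT the shares were 15.6% and 10.2%, with overlapping intervals, and 5.56% and 2.41% after thinning. Cells with Ifng were deeper (medians 6680 and 5172 UMIs in RARα-KO). Csf1 was found in 67.8% of WT CTLs with Ifng and 50.4% without, but in 13% (5.37% to 24.9%) and 21.8% (18.9% to 24.8%) after thinning, overlapping intervals, so no WT pairing of Csf1 with Ifng was seen at equal depth. In RARα-KO Csf1 was in 29.6% and 21%, and in 15.6% and 7.08% after thinning, the same direction. Of the 29 WT CTLs with Csf2, 55.2% also held Ifng (35.7% to 73.6%), against 22.4% of the others (medians 7201 and 5638 UMIs), and after thinning 2 of 11 against 6.24%, with overlapping intervals. In WT CD4 Foxp3-negative cells Csf2 was in 38.5% of the 26 cells with Csf1 (20.2% to 59.4%) and in 4.29% of the 70 without (0.893% to 12%). The cells with Csf1 were deeper (medians 4583 and 3482 UMIs). After thinning Csf1 was left in 7 cells and Csf2 in 9, too few to compare.

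At least 3 of the 8 cytokines were found in 4.02% of WT CTLs, in 3.31% from RARα-KO and in 0 of the 113 from RARα-TG, which allows up to 2.65%, and none of them in 34%, 46.9% and 82.3%. After thinning, 0.237% of WT and 0.764% of RARα-KO CTLs held 3 or more, the opposite order, on 2 and 9 cells. The share of CTLs without any was lowest in WT, as it was after thinning (70.7%, 77.9% and 92.8%). Among CD4 Foxp3-negative cells 7.29%, 7.23% and 1.82% held 3 or more.

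Several of 10 genes that respond to the antigen receptor were higher in the CTLs that held Ifng. In RARα-KO CTLs with an Ifng UMI, Egr2 was at 44.8 CPM against 7.12 CPM in those without (log2 ratio 2.65, 2.11 to 3.22), Egr3 at 26.1 against 4.55 CPM and Myc at 60.8 against 11.3 CPM. Nr4a1, the gene of the immediate-early receptor Nur77, was at 473 against 118 CPM (2.0, 1.86 to 2.14). Fos, which is not among the 10 but on the list of transcription regulators, was at 90.2 against 7.72 CPM (3.55, 3.06 to 4.07). Its WT ratio of 0.58 (-0.26 to 1.38) had an interval on both sides of 0. In WT, Egr2 (2.87, 1.48 to 4.50), Egr1 (1.32, 1.01 to 1.63), Myc (1.5, 0.93 to 2.08) and Nr4a1 (1.06, 0.85 to 1.28) were also higher in cells with Ifng, whereas Nr4a2 (0.04, -0.15 to 0.23), Nr4a3 (0.04, -0.19 to 0.26) and Cd69 (0.10, -0.21 to 0.41) had intervals on both sides of 0. Lta, the gene of lymphotoxin next to Tnf in the genome, was at 38.9 against 11.1 CPM in RARα-KO and 49 against 22.8 CPM in WT. Of the 14 RARα-TG CTLs with Ifng, Cd69 was at 516 CPM against 74.3 CPM in the other 99 (2.80, 2.12 to 3.47), while Tnfrsf9 was lower (-0.85, -1.69 to -0.12) and the other 4 measured, Nr4a1, Nr4a2, Nr4a3 and Egr1, had intervals on both sides of 0.

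**Figure D5:**
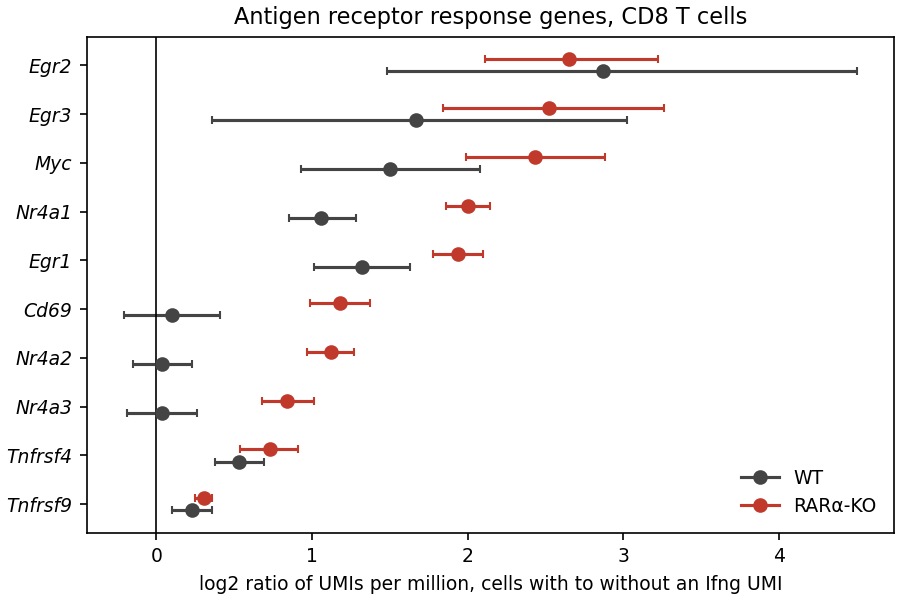
log2 ratio of CPM between CTLs with and without an Ifng UMI for 10 antigen receptor response genes in WT (199 and 647 cells) and RARα-KO (361 and 819 cells), with exact 95% intervals. Egr2 lay at 2.87 and 2.65 and Tnfrsf9 closest to 0 in RARα-KO.

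Over whole groups, 10 antigen receptor response genes were measured in CTLs, of which 4 were higher and 1 lower by over 2-fold in RARα-KO than in WT, the median being 0.84 (2.55% and 2.90% of all genes were higher and lower). Tnfrsf9, the co-stimulatory receptor 4-1BB, was at 1363 against 405 CPM (1.75, 1.69 to 1.82) and Egr2 at 21.3 against 4.27 CPM (2.32), with Egr3 at 1.63 and Egr1 at 1.60, while Tnfrsf4 (OX40) was lower at -1.19 (-1.31 to -1.07). Of 20 regulators of cytokine gene transcription, 6 were higher, Fos (1.91), Prdm1 (1.87), Jun (1.62), Eomes (1.44), Maf (1.36) and Irf4 (1.03), and Ikzf2 was lower (-1.97). Of 12 regulators of mRNA stability and feedback only Zfp36, whose protein binds AU-rich cytokine mRNAs, passed 2-fold (1.17, 0.98 to 1.37). Among 10 other T cell cytokines with enough UMIs none was higher and Il13 was lower, on 6 and 15 UMIs. In RARα-TG CTLs, 3 of the 20 transcription regulators were higher, Maf (1.47), Fos (1.27) and Eomes (1.09), and 5 lower, against 5.65% and 8.97% of all genes. Bhlhe40 was at -1.76 (-2.06 to -1.47), Batf at -1.15, Rel at -1.12 and Irf4 at -1.07, and the fifth had an interval on both sides of 0. Of the antigen receptor response genes none was higher and 3 were lower, of which Tnfrsf4 at -3.73 (-4.68 to -2.92) had an interval below 0. Among regulators of mRNA stability Socs3 (1.81) and Zfp36l2 (1.03) were higher and Cish (-1.06) lower, among other cytokines Lta was lower (-1.03), and among receptors Tnfrsf1a (1.46) and Ifngr2 (1.36) were higher and Il10ra (-1.67) lower.

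Other T cell cytokines were also compared with WT in CD4 cells. In RARα-TG, 1 of 7 with enough UMIs was higher by over 2-fold in Foxp3-positive cells (background 4.36% higher, 3.23% lower). Among Foxp3-negative cells 2 of 8 were higher (background 3.31% and 4.04%), and none was lower in either kind. In RARα-KO none was higher in either kind (background 2.51% and 3.30%), and 1 of 8 was lower in Foxp3-negative cells (background 3.66%). In Foxp3-positive cells Il17a had 47 UMIs in 15 RARα-TG cells and 0 in WT, a ratio of at least 3.68. In Foxp3-negative cells Il13 had 85 UMIs in 7 RARα-TG cells, 55 of them in 1 cell, against 2 UMIs in WT (5.32, 3.42 to 8.39). Il17a in the same cells had 17 UMIs in 7 RARα-TG cells and none in WT.

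Receptors of the 8 cytokines were read for the cells that could respond. Il2ra, the high-affinity IL-2 receptor chain of regulatory T cells, was in 85.8%, 93.7% and 90.7% of Foxp3-positive cells and in 40.6%, 27.1% and 47.3% of Foxp3-negative cells in the order WT, RARα-KO, RARα-TG, a share higher in Foxp3-positive cells of every genotype. Csf1r, the M-CSF receptor, was in 71.4%, 66.7% and 60% of myeloid cells and had 1, 1 and 0 UMIs in CTLs. Csf2rb was in 70.1%, 72.2% and 77.1% of myeloid cells. Ifngr1 was in 96.8%, 95.3% and 97.3% of CTLs, while Ifngr2, its signalling partner, was in 3.19%, 1.02% and 6.19%. Of 12 receptor genes with enough UMIs in CTLs, none was higher and 2 were lower by over 2-fold in RARα-KO (background 2.55% and 2.90%). Of these 2, Ifngr2 at -1.69 (-2.75 to -0.70) had an interval below 0.

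Interferon-γ response genes were looked up in the myeloid cells, of which 49.4% in WT held Ifngr1 and 57.1% Ifngr2. In RARα-TG myeloid cells 12 of 13 such genes were lower by over 2-fold than in WT and none was higher, with a median of -2.87, against 9.73% of all genes lower and 4.44% higher. Irf1 was at 28.4 against 585 CPM (-4.36, -5.69 to -3.30), Cxcl9 at 28.4 against 531 CPM and Gbp2 at 65 against 765 CPM, while Cxcl10 had 0 against 1099 UMIs (at most -7.29). In RARα-KO myeloid cells 2 were higher, Gbp4 (1.48, 1.0 to 1.99) and Cd274 (1.18, 0.94 to 1.42), and 2 lower, Cxcl10 (-1.83, -1.99 to -1.68) and Cxcl9 (-1.39, -1.66 to -1.12), with a median of 0.28 and a background of 5.75% higher and 3.97% lower. Many of these genes also respond to type I interferons, and only 35 RARα-TG myeloid cells were measured. In CTLs themselves the list had a median of 0.15 in RARα-KO, with 1 of 12 higher (Gbp2 at 1.01, background 2.55% and 2.90%). In RARα-TG CTLs the median was -0.10, with 1 of 12 lower, Irf8 at -2.28 (-2.75 to -1.85, background 5.65% and 8.97%).

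By Pearson correlation of log2(CPM + 10) over the 9 groups of kind and genotype, the genes most like Ifng were Yars2 (0.96), Ccdc50 (0.95) and Slc17a6 (0.95), and those most like Csf1 were Stk24 (0.95), Vipas39 (0.94) and Prkce (0.92). Tnf was nearest to Gm8369, Rpl7l1 and Cdca5 (0.94 to 0.92), Csf2 to Pxdc1, Prcp and Ramp3 (0.97 to 0.95) and Il10 to Polg, Arhgap27 and Arhgap5 (0.97 to 0.96). The 9 groups share 1 library and each genotype's mice, and with so few points these are descriptions only. Il2, Il21 and Lif had fewer than 50 UMIs in the 9 groups and were not compared.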

How the data were processed

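Per the labels, cells from MC38 tumors were run on the 10x Genomics Chromium 5′ gene expression and T cell receptor kits, and the submitters' processing notes name Cell Ranger 6.1.0 with the mouse mm10 (GRCm38) genome, while the matrix header names an earlier Cell Ranger. The authors deposited raw UMI counts per gene, hashtag and barcode for 730308 barcodes, unfiltered and not normalized, and annotated receptor contigs. No column belonged to another series (0).

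Cells were called by the steps of Cell Ranger (3000 expected cells, then a test of profiles against background at a false discovery rate of 0.01 for barcodes with 500 or more UMIs). This gave 5583 cells holding 96.4% of the gene UMIs (median 4825 per cell, precision set by counting error). Genotypes came from HTODemux (Seurat 5.3.0, R 4.3.3) at the 0.99 quantile, and marked doublets were left out. Cells were clustered by Leiden at resolution 1 on 30 principal components of 2000 variable genes (scanpy 1.11.5 under Python 3.11.15, with scipy 1.17.1, pandas 2.3.3 and numpy 2.4.6).

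UMIs were summed per genotype and kind. Shares have Clopper-Pearson, levels exact Poisson and ratios exact binomial 95% intervals, tested on simulated counts. Ratios over all genes needed 20 or more UMIs over both groups, and 0 UMIs entered as a floor of 3 over the group. A share of 0 has the limit that 3 cells of the total give, in place of the Clopper-Pearson bound. No p-value was computed, since each genotype was 1 sample. Cells were also thinned to 1000 UMIs. Myeloid, neutrophil and dendritic clusters were named by marker genes, and the Col3a1-led cluster, with too few markers, kept no name.

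The members and the lists (other cytokines, receptors, regulators of transcription and of mRNA stability, antigen receptor and interferon-γ response genes) were chosen with earlier results of these data known. Named were the 8 members, the 3 genes most like each member with 50 or more UMIs (among genes with 100 or more), and list genes past 2-fold whose interval left out 0. Of these list genes the text gives those between genotypes in CTLs and a part of those of other cells. Those by clonotype size are not given. Genes shown by cells with and without Ifng, by receptor family and by cluster were chosen after their values were seen. Alternative gates, scalings, genotype calls, cell calls, clonotype weights and left-out clusters, clonotypes and cells were tried. Beta chain CDR3 sequences are not reported here.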

Additional observations from a re-analysis of the deposited data

Results flagged for a closer look

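The Ifng ratio of RARα-KO to WT had opposite signs in 2 kinds of T cell, 1.76 on the log2 scale in CTLs and -2.02 in CD4 Foxp3-negative cells, with intervals on opposite sides of 0. The difference between the kinds was not tested. In the Foxp3-negative cells 1 WT cell held 53.9% of the WT UMIs, the ratio was 0.26 with clonotypes counted alike, and the share of cells with a UMI was higher in RARα-KO (29.5% against 16.7%), so no direction is read there.

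T cells that met neither gate (398 WT, 303 RARα-KO and 418 RARα-TG cells) were used in no comparison, yet held some members above the level in Col3a1-led cells of the same genotype. Ifng was at 63.6 CPM in WT and 132 CPM in RARα-KO. In the order WT, RARα-KO, RARα-TG, Tnf was at 34.8, 34.1 and 16.4 CPM and Il10 at 25, 16.1 and 61.3 CPM. Il2 was at 18.9 CPM in WT (25 UMIs in 4 cells), and Csf2 at 4.74 CPM in RARα-KO (5 UMIs in 3 cells). These cells were shallower, with medians of 2932, 3001 and 2840 UMIs.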

How the results depend on the processing

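Of 461 values of single genes under an alternative, 420 moved by less than their counting interval, 38 moved further and 3 reversed. The reversals were Ifng in CD4 Foxp3-negative cells with clonotypes counted alike (RARα-KO 0.26, RARα-TG 1.5) and Csf2 between large and single WT clonotypes after thinning (-0.55). The medians over the members depended most on genes carried by a few cells. For RARα-KO CTLs the median of 1.04 was 0.48 with a Cd8a-or-Cd8b1 gate, -0.90 after thinning, -0.75 with clonotypes alike, 0.71 without the granzyme C to F cluster, -0.35 without the largest clonotypes and -0.21 without the top cells. For RARα-TG it was -1.40 in CTLs and -0.76 in CD4 Foxp3-negative cells after thinning, and -0.50 in the latter with clonotypes alike. For Foxp3-positive cells it was 0.64 (RARα-KO) and 0.93 (RARα-TG) after thinning, and in RARα-KO 2.51 with clonotypes alike, 1.63 without the top cells and 0.66 whatever the Cd4 count. Without the largest clonotype the RARα-KO median by clonotype size was -0.09. After thinning, the log2 ratio of Ifng shares of RARα-KO to WT CTLs was 0.96 in place of 0.38. That of shares with and without Ifng was 1.98 for Tnf and 1.14 for Csf1 in RARα-KO, and -0.75 for Csf1 in WT. Among genes over 0.1 UMIs per cell, 85 were higher and 89 lower past 2-fold in RARα-KO CTLs, against 267 and 304 with 20 UMIs, and 306 and 381 in RARα-TG CTLs, against 538 and 854. Likewise 359 were lower in RARα-TG Foxp3-negative and 311 higher in RARα-KO Foxp3-positive cells. By clonotype size 283 were higher and 217 lower in WT, 162 and 205 in RARα-KO, and 1277 were higher in RARα-TG. The cause was not tested for any of these. No paired analysis was possible because each genotype was 1 sample, and for the same reason none could be left out. Depth limits Il2, Il21 and Lif in every kind and all members in the 113 RARα-TG CTLs.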
